A study of Homo sapiens with 12 samples.

Results

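The genes of the epidermal growth factor receptor (EGFR) family were examined in A549 cells, an established human lung adenocarcinoma line. The 9 genes were taken by symbol from the 26334 genes of the STAR count tables: the receptors EGFR, ERBB2 and ERBB3 and the ligands AREG, EREG, HBEGF, TGFA, BTC and EPGN. No measured value served as a rule for that choice, but it was made with earlier results of these data known. All 12 libraries came from cells infected with lentiviral shRNA and selected with puromycin, so the control cells carry an shRNA (shControl) as well. Cells carrying shControl or an shRNA against RNF113A (shRNF113A), a ubiquitin ligase that associates with the spliceosome, were left untreated or were exposed to cisplatin at 25 µg/ml for 20 h. This dose is that of the labels, and the study's methods give the doses of its other cisplatin treatments in micromolar units. Each of the 4 conditions had 3 libraries labelled as biological replicates, and the p-values below measure the spread between these libraries of 1 cell line.

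Receptors of this family are tyrosine kinases of the cell surface that pair up when a ligand binds. EGFR binds amphiregulin (AREG), epiregulin (EREG), heparin-binding EGF-like growth factor (HBEGF), transforming growth factor alpha (TGFA), betacellulin (BTC) and epigen (EPGN). ERBB2 has no known ligand of its own and acts as a partner, and ERBB3 has little kinase activity and binds neuregulins. The ligands are made as membrane-bound precursors that metalloproteases such as ADAM17 and ADAM10 shed, and the activated receptors signal through RAS and ERK and through PI3K and AKT.

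On hg19, EGFR lies on chr7:55086714-55324313 (plus strand), ERBB2 on chr17:37844167-37886679 (plus), ERBB3 on chr12:56473641-56497289 (plus), TGFA on chr2:70674412-70781325 (minus) and HBEGF on chr5:139712428-139726216 (minus). The other ligand genes share a stretch of chromosome 4, in the order EPGN (chr4:75174190-75181024, plus), EREG (chr4:75230860-75254468, plus), AREG (chr4:75310851-75320726, plus) and BTC (chr4:75669969-75719896, minus). AREG has a near-identical copy on this build, AREGB, at chr4:75480629-75490486. Of the 1168 stretches of 73 bases, the read length, in the AREG exons, 1095 (93.8%) also occur in the AREGB locus, so most single AREG reads match either locus and the AREG counts are uncertain. Read pairs that matched several places were tallied apart from the genes, so the AREG counts and levels may be too low. AREGB had no row in the STAR table.

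The promoters of HBEGF, TGFA and AREG are shown because these were the ligands whose transcripts rose most with cisplatin in shControl cells. Each runs from 250 bases before to 50 bases after the RefSeq start site on GRCh38.p14, 5′ to 3′ on the strand of the gene, with motif matches in capitals. Positions of matches are counted from the start site.
HBEGF (chr5:140346554-140346853, minus): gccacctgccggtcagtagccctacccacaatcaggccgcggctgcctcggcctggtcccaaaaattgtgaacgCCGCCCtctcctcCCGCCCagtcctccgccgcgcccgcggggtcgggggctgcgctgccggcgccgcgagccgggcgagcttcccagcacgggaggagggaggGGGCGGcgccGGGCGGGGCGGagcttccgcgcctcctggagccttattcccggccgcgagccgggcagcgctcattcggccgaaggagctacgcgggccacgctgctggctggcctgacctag
TGFA, first promoter in the table (chr2:70553777-70554076, minus): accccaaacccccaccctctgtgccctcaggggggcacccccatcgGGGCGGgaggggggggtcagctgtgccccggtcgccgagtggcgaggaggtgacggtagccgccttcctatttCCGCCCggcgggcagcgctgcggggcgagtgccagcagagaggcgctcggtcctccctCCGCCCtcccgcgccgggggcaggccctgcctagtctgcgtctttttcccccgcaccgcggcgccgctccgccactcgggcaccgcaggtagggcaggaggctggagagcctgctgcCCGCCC
AREG (chr4:74444886-74445185, plus): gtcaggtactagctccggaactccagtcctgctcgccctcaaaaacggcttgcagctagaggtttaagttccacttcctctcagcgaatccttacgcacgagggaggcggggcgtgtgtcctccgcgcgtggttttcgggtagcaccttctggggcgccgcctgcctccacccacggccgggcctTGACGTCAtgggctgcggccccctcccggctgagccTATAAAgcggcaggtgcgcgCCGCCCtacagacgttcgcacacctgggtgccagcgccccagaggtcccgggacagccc
The motifs searched on both strands were the GC box GGGCGG, the cAMP response element TGACGTCA, the AP-1 motif TGANTCA and the TATA box TATAAA. The HBEGF window held 5 GC boxes, at -176, -163, -73, -63 and -58, the last 2 overlapping by 1 base, and the TGFA window held 4. The AREG window held 1 cAMP response element at -65, 1 TATA box at -29 and 1 GC box at -9. Over all 35116 RefSeq promoters of this length, 45.0% held a GC box, 1.8% the cAMP response element, 7.7% the AP-1 motif and 11.5% the TATA box. A match is a description of the letters and no test of binding. The table held no promoter of ERBB3.

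The libraries held 33859097 to 56071514 read pairs, of which 26220526 to 45721152 were assigned to genes on their own strand. RNF113A mRNA, the shRNA target, was at 19.9 ± 0.397 CPM (counts scaled to a common library total, mean ± SD, n = 3) in untreated shControl cells and 16.0 ± 0.772 in untreated shRNF113A cells, a log2 fold change of -0.31 (adjusted p = 0.0247). With cisplatin it was at 29.4 ± 1.95 and 26.7 ± 2.88, the ranges overlapped, and the difference did not pass (adjusted p = 0.233), so in the cisplatin-treated cells the depletion did not show in the transcript of the target. The paper examined control and depleted A549 cells by western blot as well, and these libraries do not measure the protein. Summed epithelial markers (KRT8, KRT18, KRT19, EPCAM and CDH1) ranged from 3400 to 14110 CPM over the 12 libraries and were lower with cisplatin under either shRNA. The summed leukocyte markers ranged from 27.9 to 74.1 CPM, nearly all of it CD68, with PTPRC and CD3E at or near 0, and the summed endothelial markers stayed under 0.79 CPM. The summed fibroblast markers ranged from 6.06 to 36.2 CPM. The 2 shControl libraries numbered 2 stood apart from the others of their conditions, with root mean square distances of 0.612 and 0.527 on the log2 CPM scale against 0.254 to 0.403 for the other 10. Named calls that are lost or move by more than 1.5 times without them are given both ways, an alternative chosen after seeing the data. In such bulk libraries, fewer cells with a transcript and less of it per cell cannot be told apart.

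Per length, the family spanned a wide range of levels, led by EREG, ERBB2 and EGFR in untreated cells. In RPKM (CPM per kilobase of merged exons), EREG was at 12.8 ± 8.61 (SD, n = 3), ERBB2 at 11.7 ± 1.26 and EGFR at 9.002 ± 3.08 in untreated shControl cells, and these 3 overlapped one another in the order of levels. TGFA (3.27 RPKM), ERBB3 (2.83), HBEGF (1.55) and AREG (1.04) followed, each overlapping its neighbour, then BTC (0.375). The level and place of AREG may be too low in every condition, as most of its reads also match AREGB. These levels divide STAR counts, for which the paper took annotations from iGenomes, by exon lengths of the deposited Gencode annotation, a different gene model. With HTSeq exonic reads, counted on Gencode genes, EGFR was at 14.95 RPKM and EREG at 12.18 in untreated shControl cells. EPGN had 0 to 4 counts in every library and did not pass the filter on low counts, so 8 of the 9 genes were tested.

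In untreated shRNF113A cells the order ran EREG, ERBB2, EGFR, TGFA, HBEGF, AREG, ERBB3 and BTC, and no neighbours overlapped. After cisplatin HBEGF moved up the order. It was at 13.1 RPKM in shControl cells, where it overlapped EGFR (13.3 RPKM) and ERBB2 (10.7 RPKM), and at 29.9 ± 4.398 RPKM in shRNF113A cells, the highest level of the family on merged exons. The order depends on counting and length: HTSeq gave EGFR 1.73 times and BTC 2.04 times the STAR counts, and 0.92 to 0.995 times for the other tested genes. An annotated antisense gene, EGFR-AS1, overlaps EGFR, and the cause of these ratios was not tested. With HTSeq counts EGFR ranked first in both shControl conditions, and with the mean transcript length 15 of the 36 ranks stayed as they were. HBEGF then ranked 4 in cisplatin-treated shRNF113A cells, behind TGFA, ERBB2 and EGFR.

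**Figure D1:**
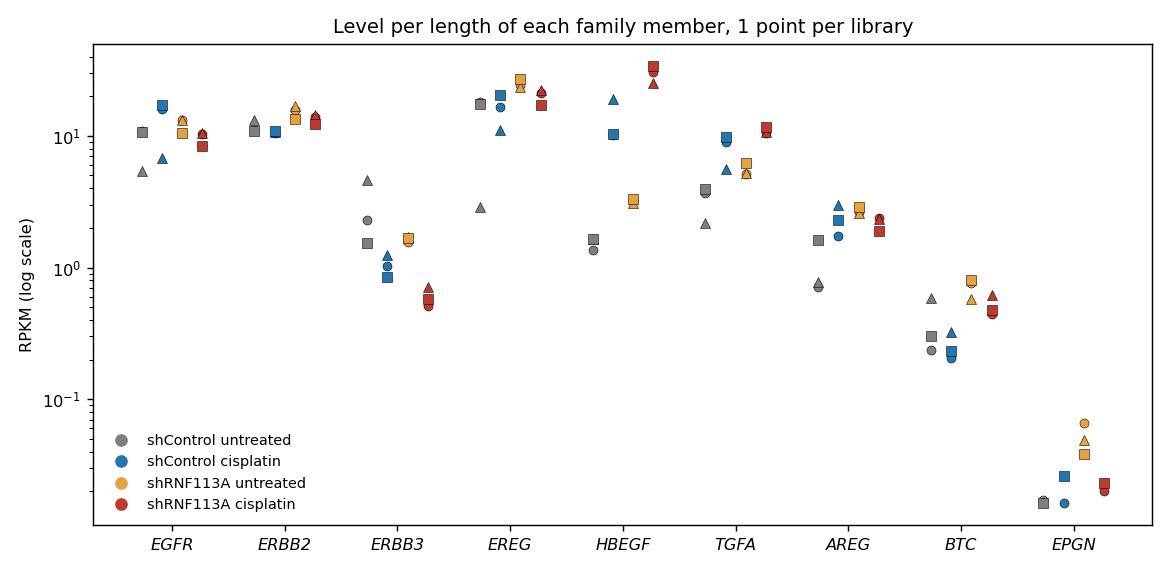
Level per length (RPKM, log scale) of each family gene, 1 point per library, coloured by condition. EREG, ERBB2 and EGFR lead in untreated cells, and HBEGF rises from 1.55 to 13.1 RPKM in shControl cells and reaches 29.9 RPKM in shRNF113A cells with cisplatin.

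HBEGF, which encodes a heparin-binding EGFR ligand, changed most. In untreated shControl cells it was at 3.23, 3.92 and 3.95 CPM, and with cisplatin at 24.1, 45.2 and 24.6. Under shRNF113A HBEGF was at 7.73, 7.35 and 7.90 CPM untreated and at 72.5, 60.2 and 81.1 with cisplatin. The 4 conditions did not overlap. Cisplatin raised HBEGF 8.45-fold in shControl cells (log2 fold change 3.08 ± 0.23 (SE), adjusted p = 4.04e-07, edgeR's quasi-likelihood test with Benjamini-Hochberg adjustment) and 9.30-fold in shRNF113A cells (adjusted p = 2.05e-07). Between shRNAs it was 2.07-fold higher in untreated shRNF113A cells (adjusted p = 0.00581) and 2.27-fold higher in those with cisplatin (adjusted p = 0.000824). The shControl rise was 6.78-fold when the 2 libraries numbered 2 were left out.

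TGFA, a ligand that binds EGFR alone, rose with cisplatin under either shRNA. It was at 17.7, 10.4 and 18.9 CPM in untreated shControl cells and at 43.0, 26.7 and 47.1 with cisplatin. Under shRNF113A TGFA was at 24.4, 25.2 and 29.7 CPM untreated and at 50.3, 51.1 and 56.0 with cisplatin. In each of the 4 comparisons the 2 conditions compared did not overlap. The rise was 2.49-fold in shControl cells (log2 fold change 1.31 ± 0.23 (SE), adjusted p = 0.000343) and 1.98-fold in shRNF113A cells (adjusted p = 0.00207). Between shRNAs, TGFA was 1.69-fold higher in untreated shRNF113A cells (adjusted p = 0.0264), and the log2 difference of 0.43 with cisplatin did not pass (adjusted p = 0.132). With each of the 12 libraries left out in turn, the untreated difference passed in 9 of 12 fits (adjusted p up to 0.0898).

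AREG, a ligand of lower affinity for EGFR, rose with cisplatin in shControl cells and was higher in untreated shRNF113A cells. Its counts were low, 32 to 154 per library. It was at 0.884, 0.968 and 2.02 CPM in untreated shControl cells, below the 2.16, 3.70 and 2.85 with cisplatin. In shRNF113A cells it was at 3.26, 3.203 and 3.57 CPM untreated, all above the 2.94, 2.87 and 2.36 with cisplatin. The shControl rise was 2.25-fold (log2 fold change 1.17 ± 0.29 (SE), adjusted p = 0.00479), and without the 2 libraries numbered 2 it was 1.73-fold (adjusted p = 0.0216). In untreated cells AREG was 2.59-fold higher under shRNF113A (log2 fold change 1.37 ± 0.30, adjusted p = 0.00498). The log2 differences of -0.29 with cisplatin in shRNF113A cells and -0.09 between shRNAs with cisplatin did not pass (adjusted p = 0.394 and 0.813).

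EREG, which binds EGFR and ERBB4, varied widely among the untreated shControl libraries. It was at 83.8, 13.3 and 80.4 CPM in untreated shControl cells, where library 2 was far lower, and at 76.4, 50.9 and 94.3 with cisplatin. In shRNF113A cells it was at 112, 108 and 125 CPM untreated and at 97.6, 104 and 78.7 with cisplatin. None of the 4 EREG comparisons passed (adjusted p from 0.148 to 0.591). When the 2 libraries numbered 2 were left out, EREG was higher in untreated shRNF113A than shControl cells (log2 difference 0.49, adjusted p = 0.00206) and lower with cisplatin in shRNF113A cells (-0.30, adjusted p = 0.0107).

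BTC, a ligand of EGFR and ERBB4, was higher in shRNF113A cells, by calls that were lost when single libraries were left out. Its counts were the lowest of the tested genes, 22 to 81 per library. It was at 0.663, 1.66 and 0.849 CPM in untreated shControl cells and at 0.579, 0.914 and 0.660 with cisplatin. Under shRNF113A BTC was at 2.14, 1.63 and 2.24 CPM untreated and at 1.26, 1.73 and 1.35 with cisplatin. The untreated groups overlapped through shControl library 2, and the cisplatin-treated groups did not overlap. The difference was 1.89-fold in untreated cells (log2 0.92 ± 0.32 (SE), adjusted p = 0.0494) and 2.01-fold with cisplatin (1.01 ± 0.33, adjusted p = 0.0277). With each of the 12 libraries left out in turn, the untreated difference stayed positive but passed only without shControl library 2 of either treatment (adjusted p up to 0.152), and the cisplatin-treated difference passed in 7 of 12 fits (adjusted p up to 0.117). Cisplatin itself gave log2 differences of -0.56 and -0.47 that did not pass (adjusted p = 0.174 and 0.22).

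**Figure D2:**
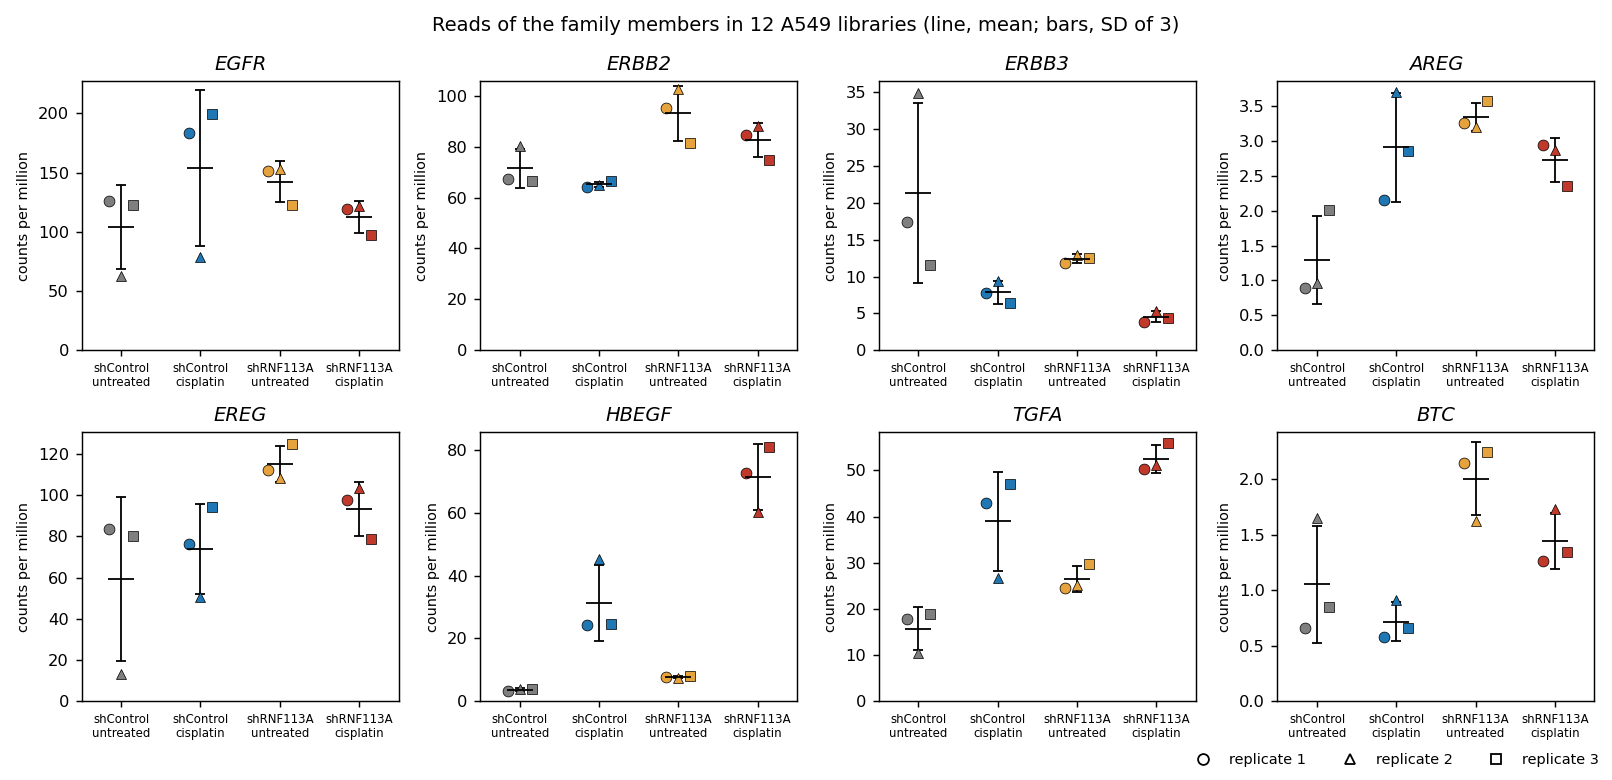
CPM of each tested family gene in the 4 conditions, 1 point per library with its replicate number as the marker, the line at the mean and bars at 1 SD (n = 3). HBEGF is at 3.23 to 3.95 CPM in untreated and 24.1 to 45.2 in cisplatin-treated shControl cells, and replicate 2 lies apart for EGFR, EREG and ERBB3 in untreated shControl cells.

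Among the receptors, ERBB3, the neuregulin receptor, fell with cisplatin under either shRNA. It was at 17.4, 35.0 and 11.5 CPM in untreated shControl cells and at 7.79, 9.43 and 6.34 with cisplatin. Under shRNF113A ERBB3 was at 11.8, 12.9 and 12.6 CPM untreated and at 3.88, 5.35 and 4.34 with cisplatin. Neither pair overlapped. The fall was 2.72-fold in shControl cells (log2 fold change -1.44 ± 0.31 (SE), adjusted p = 0.00194) and 2.75-fold in shRNF113A cells (-1.46 ± 0.33, adjusted p = 0.00208). Between shRNAs the log2 differences of -0.78 untreated and -0.79 with cisplatin did not pass (adjusted p = 0.0811 and 0.069). Without the 2 libraries numbered 2 the shControl fall was -1.04, and the untreated difference between shRNAs was -0.22 (adjusted p = 0.282).

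ERBB2, the partner receptor, was the steadiest of the 8 tested genes across conditions. It was at 67.5, 80.3 and 66.5 CPM in untreated shControl cells and at 64.3, 65.0 and 66.4 with cisplatin. In shRNF113A cells it was at 95.2, 103 and 81.5 CPM untreated and at 84.7, 88.0 and 74.95 with cisplatin. All shRNF113A libraries lay above the shControl libraries of the same treatment. The differences were 1.30-fold untreated (log2 0.38 ± 0.10 (SE), adjusted p = 0.0147) and 1.27-fold with cisplatin (0.34 ± 0.10, adjusted p = 0.0172). With each of the 12 libraries left out in turn, the untreated difference passed in 8 of 12 fits (adjusted p up to 0.0717). The cisplatin-treated difference passed in 7 of 12 (adjusted p up to 0.122). Cisplatin gave log2 differences of -0.13 and -0.17 that did not pass (adjusted p = 0.288 and 0.154).

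EGFR itself passed in none of the comparisons in the fit of all 12 libraries without a replicate block, and with the block within each shRNA it passed for both cisplatin comparisons and the interaction. It was at 126, 63.0 and 123 CPM in untreated shControl cells and at 183, 78.8 and 200 with cisplatin, and each numbered library rose over its untreated counterpart, 1.45-fold, 1.25-fold and 1.63-fold. In shRNF113A cells it was at 152, 153 and 122 CPM untreated and at 119, 122 and 97.2 with cisplatin, so all 3 were lower. Without the block the log2 differences were 0.57 ± 0.31 (SE) in shControl cells (adjusted p = 0.141) and -0.34 ± 0.31 in shRNF113A cells (adjusted p = 0.365). With it they were 0.52 ± 0.07 (adjusted p = 1.79e-05) and -0.34 ± 0.07 (adjusted p = 0.000888), where 64.8% and 69% of all genes passed. No label pairs the libraries, and same-numbered shRNF113A libraries deviated together little (correlations of 0.153, 0.016 and 0.173). Between shRNAs the log2 differences without the block were 0.45 untreated and -0.45 with cisplatin (adjusted p = 0.303 and 0.258). Without the 2 libraries numbered 2, EGFR was higher with cisplatin in shControl cells (log2 0.62, adjusted p = 0.000166), lower with cisplatin in shRNF113A cells (-0.34, adjusted p = 0.00371) and 1.70-fold lower in shRNF113A than in shControl cells with cisplatin (-0.77, adjusted p = 1.42e-05).

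Counted over the family, cisplatin in shControl cells raised HBEGF, TGFA and AREG and lowered ERBB3, so 3 of the 8 tested genes passed as higher and 1 as lower. Of all 15352 genes tested, 28.0% passed as higher and 27.0% as lower. All 4 changed at least 2-fold, as did 19.8% of all genes, and the median log2 fold change was 0.44 over the family and -0.01 over all genes. No label pairs the libraries, and the replicate numbers were taken as pairing those of shControl. With the replicate number as a block within each shRNA, EGFR (1.44-fold, adjusted p = 1.79e-05) and EREG (1.53-fold, adjusted p = 0.0441) passed too, making 6 of 8, when 9951 of the 15352 genes passed.

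In shRNF113A cells cisplatin raised HBEGF and TGFA, 2 of 8, and lowered ERBB3, 1 of 8, against 32.4% and 27.8% of all genes. At the 2-fold limit there were 2, HBEGF and ERBB3, against 23.1%. The family median was -0.30 and that of all genes 0.06.

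Depletion in untreated cells raised ERBB2, TGFA, AREG, BTC and HBEGF, 5 of 8, against 12.8% of all genes, and lowered none, against 14.6%. AREG and HBEGF passed with at least 2-fold, against 8.66%. The family median was 0.84 and that of all genes 0.00. The count depended on single libraries: it was 3 without untreated shControl library 1 and without untreated shRNF113A library 1 or 3, and 2, AREG and HBEGF, without untreated shRNF113A library 2. At an unadjusted p under 0.05 there were 6, with no share of all genes given at that limit.

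Depletion with cisplatin raised ERBB2, BTC and HBEGF, 3 of 8, against 21.1% of all genes, and lowered none, against 21.8%. BTC and HBEGF passed with at least 2-fold, against 12.3%. The family median was 0.34 and that of all genes -0.01. HBEGF alone passed without shControl cisplatin library 1 or 3 or without shRNF113A cisplatin library 1 or 2, and 2 genes passed without shRNF113A cisplatin library 3. Without untreated shControl library 2 there were 5. At an unadjusted p under 0.05 there were 4, again with no share of all genes at that limit. Leaving out the 2 libraries numbered 2 gave 5, with ERBB2, BTC and HBEGF higher and EGFR and ERBB3 lower, in a fit where 55.6% of all genes passed in either direction.

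**Figure D3:**
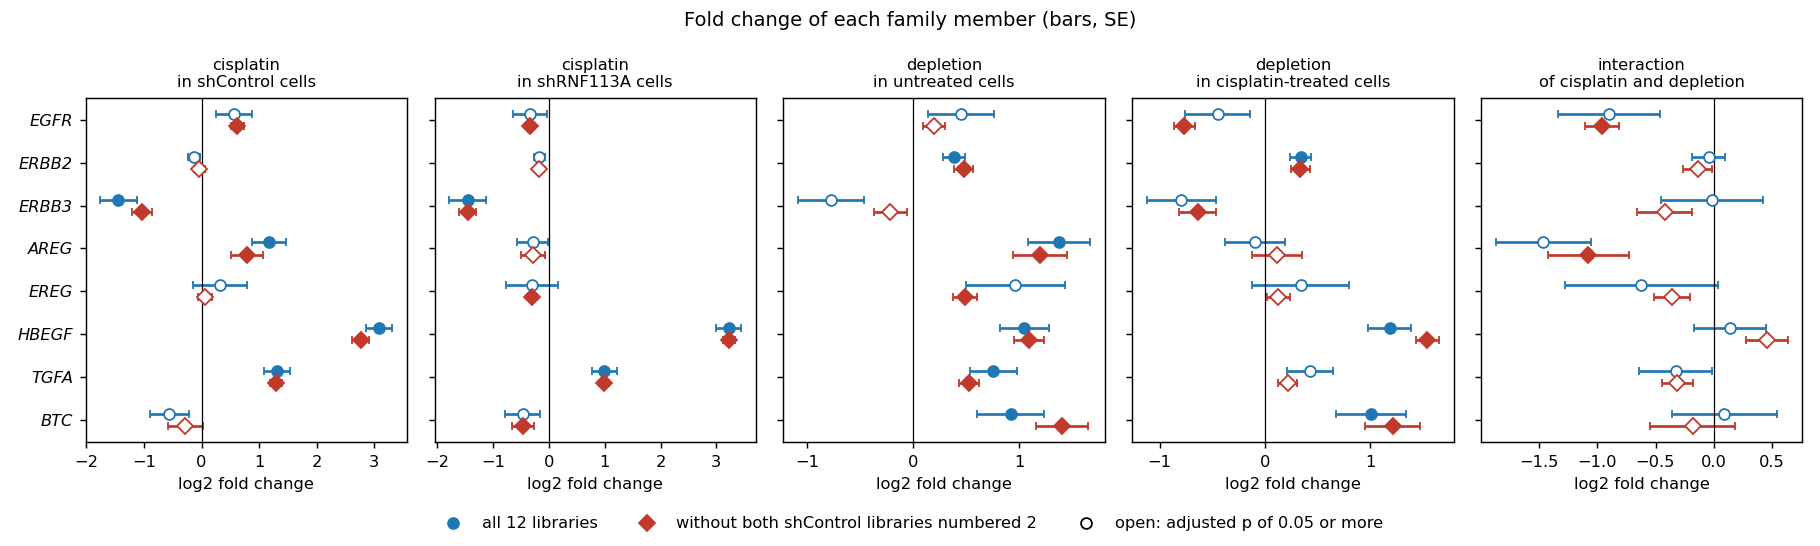
Log2 fold change of each tested family gene in the 4 comparisons and the interaction, with SE bars. Circles are fits of all 12 libraries, diamonds fits without both shControl libraries numbered 2, and open marks did not pass. HBEGF, TGFA and ERBB3 keep their cisplatin changes in both fits, and EGFR passes in the diamonds for the cisplatin comparisons.

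The interaction asks whether the cisplatin response itself differed between the shRNAs. By edgeR's quasi-likelihood test with Benjamini-Hochberg adjustment, 0 of the 8 genes passed, against 1.98% of all genes with a higher and 2.27% with a lower response in shRNF113A cells. AREG alone reached an unadjusted p under 0.05 (log2 difference of responses -1.46 ± 0.41 (SE), adjusted p = 0.0644), and DESeq2 called 1 gene, AREG. EGFR gave -0.90 ± 0.44 (adjusted p = 0.258). For HBEGF, with a large response under either shRNA, the difference of responses was 0.14, and for ERBB3 it was -0.02. With the block within each shRNA AREG (-1.48, adjusted p = 0.00676) and EGFR (-0.86 ± 0.11, adjusted p = 0.000228) passed, when 2589 genes passed. Without the 2 libraries numbered 2 the same 2 genes passed, EGFR at -0.96 ± 0.15 (adjusted p = 0.000733) and AREG at -1.08 ± 0.35 (adjusted p = 0.0448), with 17% of all genes passing.

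Because RNF113A is a spliceosome component, the reads of introns were compared with those of exons in each family gene. With cisplatin in shRNF113A cells more intronic reads per exonic read were found for EGFR, ERBB2, EREG, TGFA and BTC. EGFR had 0.0556, 0.0608 and 0.0646 intronic reads per exonic read in untreated shRNF113A cells and 0.140, 0.126 and 0.178 with cisplatin. In shControl cells it had 0.0732, 0.0820 and 0.0824 untreated and 0.0620, 0.107 and 0.0697 with cisplatin. All 3 cisplatin-treated shRNF113A libraries lay above the other 9. TGFA had 0.0294, 0.0230 and 0.0197 untreated and 0.0644, 0.0773 and 0.0663 with cisplatin in shRNF113A cells, again above the other 9 libraries, which reached 0.0350 at most. ERBB2 lay at 0.0542 to 0.0701 untreated and 0.0989 to 0.102 with cisplatin.

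The intronic to exonic ratio rose 2.43-fold for EGFR (log2 change 1.28 ± 0.20 (SE), adjusted p = 1.24e-05), 2.88-fold for TGFA (adjusted p = 9.2e-05), 1.80-fold for EREG (adjusted p = 0.00185) and 1.59-fold for ERBB2 and for BTC (adjusted p = 0.00607 and 0.0266). These were 5 of the 7 genes tested, with 67.0% of all 10984 genes higher and 0.737% lower, and the median log2 change of all genes was 0.76, so a rise was the usual case. Against cisplatin-treated shControl cells, EGFR, ERBB2, EREG, HBEGF and TGFA passed, with log2 changes of 0.92, 1.03, 1.29, 1.25 and 1.48 (adjusted p from 5.01e-05 to 0.00474). The HBEGF change was 0.59 without shControl cisplatin library 2, 2.08 without library 3 and 0.57 without both shControl libraries numbered 2, and it passed in these fits. That made 5 of 7 against 84.0% of all genes higher and 0.228% lower, at a median of 0.97.

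In untreated cells depletion raised the ratio of ERBB2 alone (log2 change 0.68 ± 0.21, adjusted p = 0.0229), 1 of 7 against 29.8% higher and 0.164% lower, with a median of 0.46 over all genes. No gene passed when untreated shControl library 2 or 3 or untreated shRNF113A library 2 or 3 was left out. With cisplatin in shControl cells 0 of 7 passed in edgeR's test, and 0 at an unadjusted p under 0.05, against 18.4% higher and 1.26% lower of all genes. No other tool was run on the ratios. Without shControl cisplatin library 2 there were 2, AREG and ERBB2. ERBB3 was left out because its genic reads were fewer than its exonic reads, and EPGN had too few reads.

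**Figure D4:**
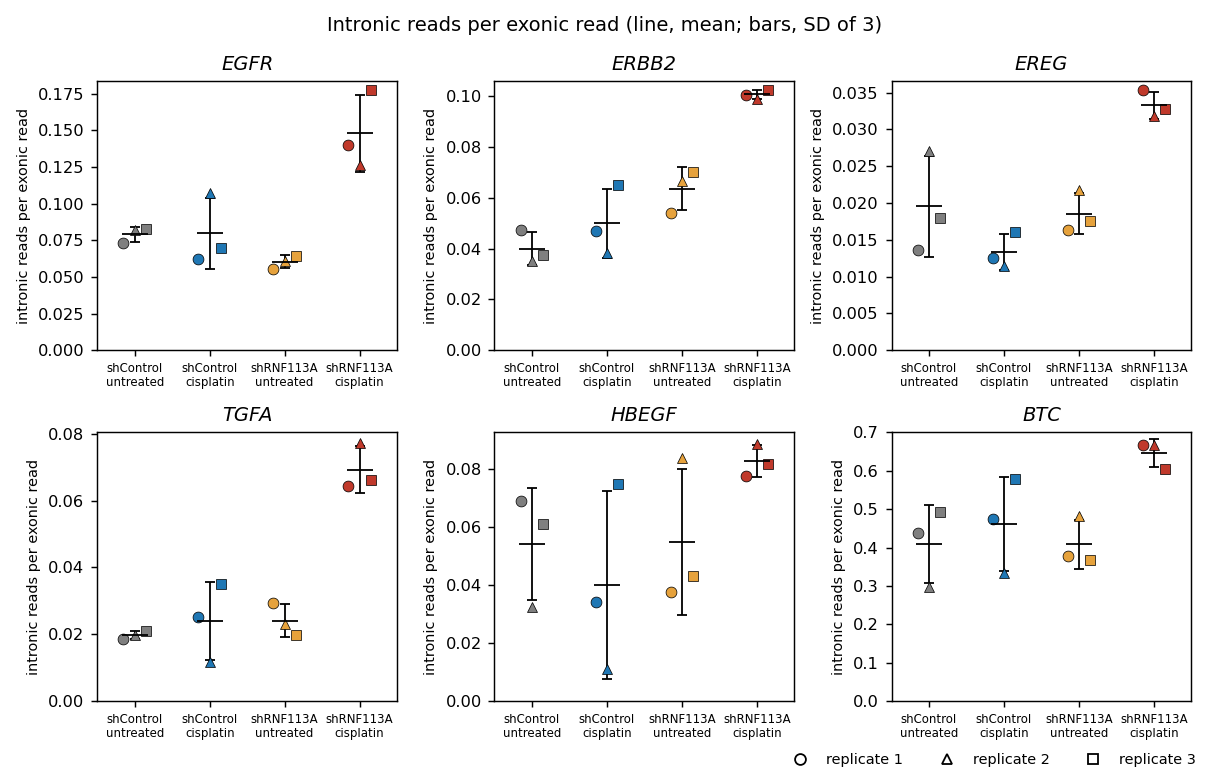
Intronic reads per exonic read of 6 family genes, 1 point per library with its replicate number as the marker, the line at the mean and bars at 1 SD (n = 3). The cisplatin-treated shRNF113A libraries are highest for EGFR (0.126 to 0.178), ERBB2, EREG and TGFA, and shControl library 2 is low for TGFA and HBEGF with cisplatin.

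Splicing events of the family, counted as reads that include or skip a stretch, gave no call. There were 28, 33, 35 and 29 annotated events in the comparisons of cisplatin in shControl cells, cisplatin in shRNF113A cells, depletion untreated and depletion with cisplatin, of which 20, 25, 27 and 19 had enough reads. By edgeR's quasi-likelihood test of inclusion against skipping reads 0 passed in each, against 0.529%, 2.61%, 0.906% and 2.32% of all events in either direction. The lowest adjusted p were 0.513, 0.295, 0.222 and 0.709. At an unadjusted p under 0.05 there was 1 event over the 4 comparisons, a pair of BTC exons counted as mutually exclusive with cisplatin in shControl cells (adjusted p = 0.513). No other tool was run on the events.

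The event of each receptor with the most reads was close to constant. Inclusion levels here divide the reads of each form by its length and average the 3 libraries. The EGFR exon at chr7:55214299-55214433 on hg19 had a level of 99.4% in untreated shRNF113A cells and of 100% with cisplatin. The ERBB3 exon at chr12:56490829-56491014 had a level of 99.1% in untreated shControl cells and of 100% with cisplatin. For ERBB2 this was a pair of exons counted as mutually exclusive, the first at chr17:37880979-37881164, at 55.9% and 54.5% in untreated and cisplatin-treated shRNF113A cells (adjusted p = 0.936). Such a level does not show a switch between exons. In the pair before it, the exon at chr17:37880165-37880263 was at 41.55% by that count in untreated shRNF113A cells. As a single exon spliced to the one at chr17:37880979-37881164, it was included in all reads there.

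Sequences of 2 further events, chosen after their values were seen, show forms that both occur in these cells, on hg19 and on the strand of the gene. In the first, an ERBB2 exon of 48 bases, capitals mark the exon. In the second, a TGFA acceptor, capitals mark the 3 bases that the longer form keeps.
ERBB2 (chr17:37876020-37876107, plus): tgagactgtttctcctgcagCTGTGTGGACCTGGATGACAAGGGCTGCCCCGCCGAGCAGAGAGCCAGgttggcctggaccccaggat
TGFA (chr2:70692846-70692888, minus): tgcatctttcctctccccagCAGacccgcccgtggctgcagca
The inclusion level of the ERBB2 exon was 96.6% and 98.4% in untreated and cisplatin-treated shControl cells and 96.6% and 97.0% in shRNF113A cells. The longer TGFA form made up 61.8% in untreated and 67.9% in cisplatin-treated shRNF113A cells (adjusted p = 0.825). It was at 65.5% in cisplatin-treated and 41.4% in untreated shControl cells, where 1 library held only 1 read of the longer and 4 of the shorter form.

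Other genes of the pathway were taken from lists drawn up with earlier results of these data known. Their counts stand against 28.0% of all genes higher and 27.0% lower with cisplatin in shControl cells, 32.4% and 27.8% in shRNF113A cells, 12.8% and 14.6% for depletion untreated and 21.1% and 21.8% with cisplatin. Of the neuregulins, ligands of ERBB3 and ERBB4, NRG1 was 2.49-fold lower in untreated shRNF113A cells (adjusted p = 0.0114) and 2.63-fold lower with cisplatin (adjusted p = 0.00510). NRG2 fell 4.34-fold and NRG4 2.73-fold with cisplatin in shControl cells, and NRG4 was 3.23-fold higher in untreated shRNF113A cells (adjusted p = 7.3e-05) where NRG2 was 3.78-fold lower (adjusted p = 0.00029). Of 5 tested genes of this list, 0 rose and 2 fell with cisplatin under either shRNA. Depletion gave 1 higher and 2 lower untreated, and 2 higher and 2 lower with cisplatin. The second gene higher with cisplatin was ERBB4, the fourth receptor, which had 0 to 13 counts per library. EGF, the founding ligand, passed in none of the 4 comparisons over all 12 libraries (adjusted p from 0.0763 to 0.635). Without the 2 libraries numbered 2, EGF was 2.47-fold lower with cisplatin in shControl cells (adjusted p = 0.0226). In that fit it was 2.22-fold higher in shRNF113A than in shControl cells with cisplatin (adjusted p = 0.0387).

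Among 8 genes of ligand shedding, 2 rose and 3 fell with cisplatin in shControl cells, and 3 and 3 in shRNF113A cells. Depletion gave 1 higher and 1 lower untreated, and 2 and 4 with cisplatin. ADAM17, the main protease of AREG, HBEGF and TGFA precursors, was at 84.1 to 104 CPM in untreated shControl cells and 45.2 to 48.6 in untreated shRNF113A cells, without overlap. It was 1.97-fold lower in untreated shRNF113A cells (adjusted p = 1.5e-05) and 1.93-fold lower with cisplatin (adjusted p = 1.87e-05). ADAM10 fell with cisplatin by 0.69 on the log2 scale in shControl cells and by 1.23 in shRNF113A cells, and the difference passed (-0.53, adjusted p = 0.0333). ADAM12 fell 21.8-fold and 14.7-fold, and RHBDF1, a regulator of ADAM17, rose 2.39-fold and 3.19-fold. In cisplatin-treated cells depletion raised ADAM8 2.04-fold (adjusted p = 0.00222) and lowered TIMP3, an inhibitor of these proteases, 4.32-fold (adjusted p = 0.0130), from few counts.

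Of 9 tested genes of receptor inhibition and turnover, 4 rose and 2 fell with cisplatin in shControl cells and 4 and 4 in shRNF113A cells. Depletion gave 1 and 3 untreated, and 0 and 4 with cisplatin. LRIG1, which promotes receptor degradation, fell 3.34-fold and 3.37-fold with cisplatin and was 2.67-fold and 2.69-fold lower in shRNF113A cells (adjusted p = 0.00466 and 0.00438). SOCS4 rose 3.47-fold and 2.75-fold. ERRFI1, an EGFR kinase inhibitor, fell by 0.54 and by 0.49 on the log2 scale, with no difference called between shRNAs (adjusted p = 0.98 and 0.749).

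Of 7 adaptors, 2 rose and 0 fell in shControl cells and 2 and 2 in shRNF113A cells, and depletion gave 1 and 0 untreated and 2 and 2 with cisplatin. SHC1 rose 2.06-fold and 2.13-fold with cisplatin, and GAB1 was 2.03-fold lower in shRNF113A cells with cisplatin (adjusted p = 0.00321). Of 16 genes of RAS, MAPK and PI3K signalling, 3 rose and 6 fell in shControl cells and 2 and 6 in shRNF113A cells, with 0 and 1 for depletion untreated and 1 and 3 with cisplatin. STAT3 rose 2.498-fold and 2.28-fold.

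Of 8 transcripts that ERK signalling is known to induce, 7 were higher and 0 lower in untreated shRNF113A cells, against 12.8% and 14.6% of all genes, with a median log2 difference of 0.68. With cisplatin 5 were higher and 0 lower. Cisplatin gave 4 higher and 1 lower in shControl cells, and 3 and 1 in shRNF113A cells. Without the 2 libraries numbered 2, FOSL1 was lower in untreated shRNF113A cells (log2 -0.56, adjusted p = 4.55e-05), and the 7 others stayed higher. In that comparison 41.8% of all genes passed. In the same fit PHLDA1 (-0.47) and IER3 (-0.28) passed as lower with cisplatin in shControl cells besides ETV5, and the 4 stayed higher. DUSP6, an ERK phosphatase, was 2.75-fold higher in untreated shRNF113A cells (adjusted p = 0.000212) and rose 2.83-fold with cisplatin in shControl cells. SPRY4 was 2.10-fold higher in shRNF113A cells with cisplatin (adjusted p = 0.000187). FOSL1, an AP-1 subunit, rose 5.41-fold and 7.003-fold with cisplatin under shControl and shRNF113A. EGR1 was at 3.13, 66.2 and 4.43 CPM in cisplatin-treated shControl cells against 0.967, 2.52 and 1.33 untreated. Its rise of 15.2-fold (adjusted p = 0.00516) rested on library 2 and was 3.31-fold without the 2 libraries numbered 2 (adjusted p = 0.000791). It was 7.36-fold higher in untreated shRNF113A cells (adjusted p = 0.0473), and with cisplatin the log2 difference between shRNAs was -0.04 over all libraries and 2.65 without those 2 (adjusted p = 8.3e-07).

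The markers moved with the same groups, and their part in these results was not tested. With cisplatin 3 of 5 epithelial markers fell in shControl cells and 4 of 5 in shRNF113A cells, against 27.0% and 27.8% of all genes. Among them were KRT8 (2.13-fold and 2.21-fold), KRT18 (2.86-fold and 2.85-fold) and CDH1 (3.12-fold and 2.77-fold). Between shRNAs EPCAM was 8.91-fold higher in untreated shRNF113A cells and 9.002-fold higher with cisplatin, and KRT19 3.35-fold higher untreated, while CDH1 was 1.44-fold lower untreated (adjusted p = 0.0414). Leaving out both shControl libraries numbered 2 made the untreated EPCAM difference 14.7-fold, and CDH1 no longer passed (1.29-fold, adjusted p = 0.0572). CD68, the only leukocyte marker tested, was 2.07-fold higher in shRNF113A cells with cisplatin. Of the fibroblast markers LUM was 4.67-fold and 3.72-fold higher in shRNF113A cells, and COL1A1 was 3.27-fold lower untreated. In the fit without those libraries untreated LUM was 8.49-fold higher, and COL1A1 did not pass (1.33-fold, adjusted p = 0.0837), its untreated shControl values being 5.86, 34.9 and 7.08 CPM. CDH5, an endothelial marker, was 5.11-fold higher in shRNF113A than in shControl cells given cisplatin, from few counts and with overlapping groups, and 8.72-fold higher without those libraries.

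The genes most alike in pattern were found by the root mean square difference of centred log2 CPM over the 12 libraries, and likeness says nothing of shared control. They were GSE1 (0.21) and ITGA6 (0.219) for EGFR, APLP2 (0.073) and DCAF7 (0.077) for ERBB2, and RNASE4 (0.174) and EFHD1 (0.242) for ERBB3. Among the ligands they were SP6 (0.394) and YPEL3 (0.415) for HBEGF, EHD1 (0.184) and TNFSF9 (0.195) for TGFA, and AVPI1 (0.322) and ZNF420 (0.357) for AREG. For EREG they were SNORD88C (0.274) and LINC01133 (0.355), and for BTC NNT (0.208) and TSC22D1 (0.215). HBEGF, with the largest changes, had the most distant nearest gene.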

How the data were processed

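The authors prepared stranded mRNA libraries of A549 cells and aligned the reads to hg19 with STAR 2.5.2b, per the labels and the submitters' processing notes. They deposited raw STAR counts of read pairs per gene, from which the counts on the strand of the gene were used. They also deposited HTSeq counts of exonic and whole-gene reads on protein-coding Gencode genes, and rMATS tables with raw inclusion and skipping reads, whose 3 libraries per group are in an order that is not named. The deposited fold changes, p-values and inclusion differences of the authors' own comparisons were not used.

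Counts of 15352 genes passing edgeR's filterByExpr were fitted in edgeR 4.0.16 (R 4.3.3) with TMM normalization and the quasi-likelihood test, as treatment by shRNA over all 12 libraries, with Benjamini-Hochberg adjustment over all genes and a threshold of 0.05. Intronic reads were genic minus exonic, tested as an interaction with read class in edgeR. Splicing was tested as inclusion against skipping reads with edgeR's quasi-likelihood test where each library had at least 10 reads. DESeq2 1.42.0 was an alternative. Each procedure was tested on simulated data.

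Same-numbered libraries of untreated and cisplatin-treated shControl cells deviated together (correlations of 0.481, 0.668 and 0.376), those of shRNF113A cells less (0.153, 0.016 and 0.173), and shControl and shRNF113A libraries did not (-0.111 to 0.125). The numbers were therefore taken as pairing the shControl libraries, which no label states. Libraries of different numbers were not correlated, so the values do not show that same-numbered libraries match better than others. The block was applied within both shRNAs.

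The members and gene lists were chosen with earlier results of these data known. Named genes were all 9 members, RNF113A, ERBB4, EGF, NRG1, ADAM17 and ERRFI1, list genes that passed with at least 2-fold in any of the 4 comparisons within a condition, the 2 genes nearest in pattern to each member, and the splicing event of each receptor with the most reads. Some genes of the lists are not reported here.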

Additional observations from a re-analysis of the deposited data

Results flagged for a closer look

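ADAM10, a protease that sheds ligands of the family, was lower with cisplatin under either shRNA, and the fall differed between the shRNAs by the interaction test (log2 difference -0.53, adjusted p = 0.0333, edgeR's quasi-likelihood test). It was at 228 to 263 CPM in untreated shControl cells and 143 to 159 with cisplatin, and at 244 to 262 and 95.7 to 119 CPM in shRNF113A cells. The lower level with cisplatin in shRNF113A cells did not overlap that in shControl cells.

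AREG and EGFR responded differently to cisplatin under the 2 shRNAs when the replicate number was a block within each shRNA. The log2 difference of responses was -1.48 for AREG (adjusted p = 0.00676) and -0.86 for EGFR (adjusted p = 0.000228). Over the 12 libraries without the block neither passed (-1.46, adjusted p = 0.0644, and -0.90, adjusted p = 0.258). By replicate number, the ratio of cisplatin-treated to untreated EGFR was 1.45, 1.25 and 1.63 in shControl cells and 0.785, 0.795 and 0.795 in shRNF113A cells, and that of AREG was 2.44, 3.83 and 1.42 against 0.903, 0.898 and 0.661. No label gives this pairing, and 16.9% of all genes passed for the interaction with the block.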

How the results depend on the processing

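The changes of HBEGF in the 4 comparisons, and those of TGFA and ERBB3 with cisplatin, passed under every alternative run. With each library left out in turn, 4 to 5 genes passed for cisplatin in shControl cells, 3 to 4 in shRNF113A cells, 2 to 5 for depletion untreated, 1 to 5 with cisplatin and 0 to 1 for the interaction, where AREG passed without untreated shControl library 3 and EGFR without shControl cisplatin library 2. Over all genes 7572 to 8773, 8234 to 10083, 2682 to 4804, 4998 to 7814 and 171 to 1547 passed in these fits, in that order. For the intronic ratio 0 to 2 passed for cisplatin in shControl cells and 0 to 3 for depletion untreated. With a replicate block across all libraries 5 genes passed for depletion with cisplatin. With the block within each shRNA, 2 passed for the interaction, where 16.9% of all genes passed. In the same fit EGFR passed as lower with cisplatin in shRNF113A cells (-0.34, adjusted p = 0.000888), where 69% of all genes passed. With the block by read class 2 intronic ratios passed for depletion untreated. The replicate block changed no other count by over 1.5 times. In an additive model 5 genes passed for depletion with cisplatin. In fits of the compared libraries alone 7 passed for cisplatin in shRNF113A cells and 3 for depletion untreated. For these fits, the additive model and the block across all libraries no share of all genes is given, so their counts cannot be read against it. Without both shControl libraries numbered 2 there were 6 and 5 for cisplatin in shRNF113A cells and depletion with cisplatin, when 71.4% and 55.6% of all genes passed, and 2 for the interaction, where DESeq2 gave 1. With at least 50 intronic and 50 exonic reads 3 intronic ratios passed for cisplatin in shRNF113A cells. At that limit TGFA, BTC and AREG had too few intronic reads on average to be tested. With transcript length 15 ranks of levels stayed.

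None of the results whose direction turned had passed. In the additive model, which gives 1 cisplatin effect over the shRNAs, that effect was 0.0079 for EREG, 0.42 for AREG and 0.11 for EGFR, and the depletion effect was 0.62 for AREG and 0.0009 for EGFR. With unstranded counts the ERBB3 interaction was 0.0252. Without the 2 libraries numbered 2 the AREG difference between shRNAs with cisplatin was 0.12, the BTC interaction was -0.18, and the intronic changes for depletion untreated were -0.20 for BTC and -0.25 for HBEGF. With 1 library left out, EREG with cisplatin in shControl cells ranged from -0.15 to 0.66 and AREG for depletion with cisplatin from -0.32 to 0.0737. The interactions ranged from -0.58 to 0.28 for ERBB3, -0.14 to 0.0306 for ERBB2, -0.39 to 0.33 for BTC and -0.0665 to 0.46 for HBEGF. The intronic changes with cisplatin in shControl cells ranged from -0.0435 to 0.44 for BTC, -0.26 to 0.13 for EGFR, -1.46 to 0.0339 for HBEGF and -0.0557 to 0.60 for TGFA, and those for depletion untreated from -0.20 to 0.21 for BTC, -0.14 to 0.23 for EREG and -0.40 to 0.25 for HBEGF. The cause was not tested. AREG, BTC and EPGN have the fewest counts, which limits their precision, and the order of libraries in the splicing tables is not named.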
